A study of Mus musculus with 15 samples.

Results

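The comparison is of UCP1-positive adipocytes sorted from inguinal fat of mice given rosiglitazone (RG, 3 arrays) with UCP1-negative white adipocytes sorted from inguinal fat of untreated mice (WAT, 4 arrays). All 25206 probe sets of the deposited table entered it, which is every probe set of the series, on 7 of the 15 arrays analysed here. The remaining arrays held UCP1-positive inguinal adipocytes after CL316243 (CL, 3 arrays), an agonist of the beta3-adrenergic receptor, or after roscovitine, which blocks cyclin-dependent kinases (RS, 2 arrays), and UCP1-positive brown adipocytes of untreated mice (BAT, 3 arrays). All mice are labelled UCP1/Tomato, were 8 to 10 weeks old and ate standard chow. The gate is labelled UCP1(GFP), so the reporter behind it is not settled by the labels. The labels give no dose, no length of treatment, no sex and no statement that arrays came from separate animals, so the p-values measure only the spread between these arrays, which may be technical. No UCP1-positive inguinal cells of untreated mice were measured, and the WAT cells were sorted as UCP1-negative. Treatment and sorting gate therefore change together in RG against WAT and cannot be told apart.

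Inguinal fat is a subcutaneous white depot in which some adipocytes, called beige, can switch on UCP1, the mitochondrial carrier that lets the proton gradient run down as heat. Rosiglitazone is a thiazolidinedione that binds PPARG, the nuclear receptor that drives adipocyte differentiation and, as a dimer with a retinoid X receptor, activates genes of lipid storage, fatty acid oxidation and, in cells able to do so, heat production. The receptor pair binds direct repeats of the half-site AGGTCA. PPARGC1A and PPARGC1B are coactivators that raise the output of PPARs and of the nuclear genes for mitochondrial proteins.

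Values are log2 expression values, so a difference of 1 is a doubling, and all differences are RG minus WAT unless stated. In limma over all probe sets, 2882 probe sets (11.4%) passed an adjusted p under 0.05, of which 1308 (5.19%) were higher in RG and 1574 (6.24%) lower. That count was 1044 without RG4, 1215 without RG2, 1555 without WAT4, 1773 without WAT2 and 1886 without RG3. The median difference of all probe sets was 0.10, but it was -0.035 without dim probe sets and 0.033 with quantile normalization. The shift was thus not common to all probe sets, and the differences below are not corrected for it unless stated. A probe set is called higher or lower here where it passed that threshold. WAT4 stood apart from the other WAT arrays. The mean of 26 mature adipocyte genes was 7.22 in WAT4, 8.53 to 9.06 in WAT1 to WAT3 and 9.42 to 9.87 in RG, and the mean of 27 macrophage markers was 7.70, 6.92 to 7.23 and 4.48 to 5.49 in the same order. In a sorted bulk sample, fewer cells of a type and less RNA per cell cannot be told apart. To show how each gene stood against the adipocyte markers of its own array, the fit was repeated with every array centred on its mean of 8 adipocyte markers (Adipoq, Plin1, Lipe, Cidec, Pparg, Cebpa, Slc2a4 and Fabp4), a setting chosen after seeing the data. Their mean was 9.38, 9.40 and 9.69 in RG and 8.97, 8.49, 8.90 and 7.31 in WAT1 to WAT4. This centring lowers the median of all probe sets to -0.97, with 9 probe sets called higher and 15030 lower.

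Ucp1, the gene the sort selected on, had levels of 7.69, 7.96 and 8.88 in RG2, RG3 and RG4 and of 4.03, 4.47, 4.39 and 3.20 in WAT1 to WAT4. Every RG array lay above every WAT array, as the gate requires, so this difference is a check of the labels and not a result. The next largest increases were in genes the gate did not use directly. Cidea, a lipid droplet protein abundant in brown fat, was at 8.38, 8.37 and 9.38 in RG and at 6.60, 6.25, 6.15 and 4.52 in WAT (difference 2.83 ± 0.41, SE, n = 3 and 4, limma adjusted p = 0.000975). Otop1, a proton channel, was at 6.35, 6.54 and 7.33 against 4.57, 4.51, 4.31 and 3.32 (difference 2.56, adjusted p = 0.00112). Cox7a1, the subunit of cytochrome c oxidase found in heart, muscle and brown fat, was at 7.53, 7.34 and 8.07 against 5.48, 5.22, 5.33 and 4.65 (difference 2.48, adjusted p = 0.000352). In all of these the groups did not overlap, which was also so for 19.1% of all probe sets in this direction. Elovl3, an elongase of very long fatty acids, rose by 2.22 to only 5.02 to 6.17 in RG. Gys2, a glycogen synthase, rose by 2.12 to 7.58 to 8.45, and Arxes1, an adipocyte gene induced during differentiation, by 2.09 to 7.60 to 8.80.

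**Figure D1:**
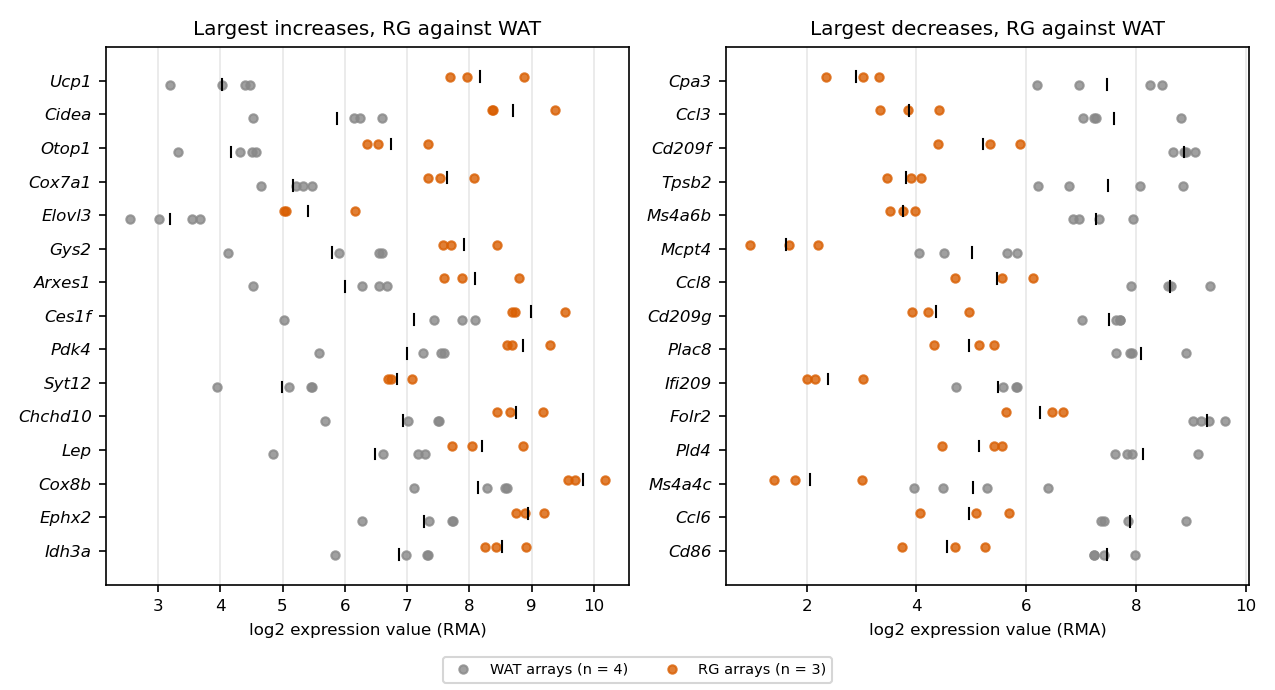
Log2 expression values (x axis) in the 3 RG arrays and 4 WAT arrays for the 15 genes with the largest increase (left) and the 15 with the largest decrease (right) among genes called and not overlapping between the groups. Points are arrays and vertical bars are group means. For each of the 15 genes on the left the lowest point is WAT4, as at 4.52 for Cidea, while Cpa3 on the right lay between 6.20 and 8.47 in WAT and between 2.36 and 3.31 in RG.

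The rest of the 15 largest increases were metabolic or secretory genes. Pdk4, a kinase that keeps pyruvate out of the citric acid cycle, was at 8.60, 8.68 and 9.29 in RG and 7.60, 7.25, 7.54 and 5.59 in WAT. Ces1f, a carboxylesterase, rose by 1.88, Syt12, a synaptotagmin, by 1.85, Chchd10, a mitochondrial intermembrane space protein, by 1.83, and Lep, which encodes leptin, by 1.73. Cox8b, a further muscle and brown fat form of a cytochrome c oxidase subunit, rose by 1.68, Ephx2, soluble epoxide hydrolase, by 1.68, and Idh3a, the catalytic subunit of NAD-dependent isocitrate dehydrogenase, by 1.66. In most of these WAT4 had the lowest value of the WAT arrays by a wide margin, at 5.02 for Ces1f where the other WAT arrays lay between 7.43 and 8.10. Without WAT4 all 15 stayed called. Relative to the 8 adipocyte markers of each array, the genes that remained called higher were Ucp1 (3.08), Cidea (1.76, adjusted p = 0.000464), Otop1 (1.49), Cox7a1 (1.40), Elovl3 (1.15), Gys2 (1.04) and Arxes1 (1.01), together with the predicted gene Gm14327 and the microRNA gene Mir3473c, which were named after their values were seen.

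Some thermogenic genes were higher in RG and most were not called. Of 40 measured members, 14 were called higher, 26 were not called and none was lower by limma (18 and 2 at an unadjusted p under 0.05), with a median difference of 0.38 that became -0.70 relative to the adipocyte markers. The count was 8 without RG4, and 1 member was called lower without WAT1 or WAT3. Besides Ucp1, Cidea, Otop1, Cox7a1, Elovl3 and Cox8b, the called members were Ppargc1b, Letmd1, Ppargc1a, Ppara, Phospho1, Slc27a2, Acot2 and Nrg4. Letmd1, a mitochondrial protein needed for heat production in brown fat, was at 7.79, 7.69 and 8.09 in RG and 6.88, 6.58, 6.90 and 5.99 in WAT. Slc27a2, a fatty acid transporter with acyl-CoA synthetase activity, was at 3.20, 2.96 and 4.43 against 2.03, 2.57, 1.95 and 2.23. It was not called without RG4. Nrg4, a growth factor secreted by brown and beige fat, rose by 1.48 to 7.79 to 8.52 and was called in 3 of the 7 fits that each left out 1 array.

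Several well-known thermogenic genes were not called. Dio2, the deiodinase that makes active thyroid hormone, was at 3.29, 2.58 and 4.20 in RG and between 2.71 and 3.03 in WAT, so the groups overlapped (adjusted p = 0.43). Prdm16, a transcriptional regulator of beige and brown identity, was at 4.94 to 5.53 in RG and 4.55 to 5.15 in WAT (difference 0.32, adjusted p = 0.282). Kcnk3, a potassium channel, differed by 1.08 and Gatm and Slc6a8 of the creatine cycle by -0.63 and -0.80, none of them called. Acot11, a brown fat acyl-CoA thioesterase, differed by 0.45 and was not called either.

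Among PPARs and their coregulators, 7 of 32 measured members were called higher and 1 lower, with a median of 0.28 that became -0.79 relative to the adipocyte markers. The higher count was 3 without RG4, and the lower one was 0 without RG2, RG4, WAT2 or WAT3. Pparg itself was at 8.23, 8.10 and 8.17 in RG and at 7.58, 7.11, 7.35 and 6.98 in WAT, a 1.88-fold increase (difference 0.91 ± 0.17, SE, n = 3 and 4, limma adjusted p = 0.00458). All RG arrays lay above the highest WAT array, as for 19.1% of all probe sets. Ppargc1a was at 5.58, 5.41 and 6.20 against 4.52, 4.30, 4.41 and 3.86 (difference 1.46, adjusted p = 0.00909). Ppargc1b was at 5.22, 5.30 and 5.85 against 4.15, 4.36, 4.55 and 3.87 (difference 1.22, adjusted p = 0.00151). Ppara, the PPAR of fatty acid oxidation, rose by 1.45 and Cebpa, the partner of PPARG in adipocyte differentiation, by 1.00. Rxrg, a retinoid X receptor, rose by 0.49 and Zfp423, a zinc finger protein known for holding white adipocytes in their white state, by 0.63, both called in few of the fits that left out an array (2 and 3 of 7). Tle3, a corepressor known to oppose PRDM16, was the member that fell, from 8.09 to 8.54 in WAT to 7.45 to 7.91 in RG, and it was called in 2 of 7 such fits.

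Promoter windows are shown for Ucp1, for Pparg at its first 2 annotated starts, for Plin5, a lipid droplet protein of oxidative tissues, for Acadvl, the first enzyme of long-chain fatty acid oxidation, and for Nrg4, as called genes with a window that holds the half-site of nuclear receptors, and for Cox7a1, a called gene whose window holds none. The third annotated start of Pparg and the second of Plin5 hold none either, and only the first start of Plin5 is printed. Each runs 5′ to 3′ over the 250 bases before the start in RefSeq on build GRCm38.p6, with AGGTCA on either strand (TGACCT where it lies on the opposite one) in capitals. The windows are chr8:83290098-83290347 on the plus strand for Ucp1, chr6:115360894-115361143 and chr6:115362099-115362348 on the plus strand for Pparg, chr17:56117549-56117798 on the minus strand for Plin5, chr11:70015429-70015678 on the minus strand for Acadvl, chr9:55283626-55283875 on the minus strand for Nrg4 and chr7:30183921-30184170 on the plus strand for Cox7a1.
Ucp1: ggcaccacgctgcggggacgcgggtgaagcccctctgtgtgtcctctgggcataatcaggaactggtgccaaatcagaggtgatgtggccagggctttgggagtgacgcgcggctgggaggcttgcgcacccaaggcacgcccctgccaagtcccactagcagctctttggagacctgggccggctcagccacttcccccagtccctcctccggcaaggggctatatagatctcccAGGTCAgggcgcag
Pparg, first start: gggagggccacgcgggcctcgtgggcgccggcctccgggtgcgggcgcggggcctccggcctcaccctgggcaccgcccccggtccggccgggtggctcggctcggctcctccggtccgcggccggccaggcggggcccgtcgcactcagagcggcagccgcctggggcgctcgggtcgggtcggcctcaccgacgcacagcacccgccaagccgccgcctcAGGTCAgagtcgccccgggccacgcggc
Pparg, second start: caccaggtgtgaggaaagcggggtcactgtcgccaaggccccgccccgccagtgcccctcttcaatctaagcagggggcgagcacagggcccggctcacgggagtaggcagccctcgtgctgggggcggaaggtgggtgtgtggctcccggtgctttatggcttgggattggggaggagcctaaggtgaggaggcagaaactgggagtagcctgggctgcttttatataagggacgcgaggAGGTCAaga
Plin5, first start: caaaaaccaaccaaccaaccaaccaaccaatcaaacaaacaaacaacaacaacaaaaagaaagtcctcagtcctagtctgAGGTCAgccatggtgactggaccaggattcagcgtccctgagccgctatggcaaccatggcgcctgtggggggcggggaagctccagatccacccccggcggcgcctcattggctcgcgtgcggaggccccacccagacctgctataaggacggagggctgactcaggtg
Acadvl: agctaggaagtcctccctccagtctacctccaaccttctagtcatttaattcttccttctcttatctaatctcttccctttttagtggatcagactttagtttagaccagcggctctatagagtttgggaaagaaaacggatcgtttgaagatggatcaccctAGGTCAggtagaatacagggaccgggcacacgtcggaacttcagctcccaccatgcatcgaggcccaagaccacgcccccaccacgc
Nrg4: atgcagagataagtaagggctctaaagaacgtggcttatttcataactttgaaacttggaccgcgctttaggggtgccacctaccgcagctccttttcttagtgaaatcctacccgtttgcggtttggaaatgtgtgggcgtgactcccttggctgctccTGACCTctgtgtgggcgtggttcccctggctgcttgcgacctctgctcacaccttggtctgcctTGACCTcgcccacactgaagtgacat
Cox7a1: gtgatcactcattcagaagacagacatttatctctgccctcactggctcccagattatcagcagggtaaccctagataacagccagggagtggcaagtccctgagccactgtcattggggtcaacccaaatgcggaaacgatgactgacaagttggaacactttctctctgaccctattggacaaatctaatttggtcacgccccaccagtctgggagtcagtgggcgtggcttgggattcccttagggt
The half-site is short and common, and it was found in 14.02% of all 32851 promoters of the table and in 12.77% of those of genes on the array. Genes called higher in RG held it in 13.2% of 1061 promoters and genes called lower in 12.27% of 1548. Among lists with more members higher than lower, it was found in 9 of 40 promoters of the thermogenic list, 5 of 20 of the mitochondrial beta-oxidation list and 3 of 33 of the complex I list. Among lists with more members lower, it was found in 3 of 23 promoters of the macrophage list, 7 of 28 of the chemokine and cytokine list and 5 of 11 of the epithelial list. The shares of the 2 kinds of list overlapped. The full direct repeat of the half-site with a spacer of 1 base was found in 11 promoters of the whole table (0.03%). These are matches of letters in a window near the start, not sites of binding, and elements farther away were not searched.

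Lipid droplet genes rose in 8 of 18 members and none fell by limma (11 higher and 1 lower at an unadjusted p under 0.05). Their median was 0.58, and -0.49 relative to the adipocyte markers. The count was 1 without RG4, 4 without RG2 or WAT2 and 5 without RG3. Plin5, which tethers droplets to mitochondria, was at 5.31, 5.57 and 5.95 in RG and at 4.95, 4.84, 4.46 and 4.09 in WAT (difference 1.02, adjusted p = 0.0118). Fitm2, which helps droplets form, rose by 1.24, Arxes2 by 1.53, Plin4 by 1.02, Cidec, the droplet fusion protein of large droplets, by 1.32, and Plin1, the main droplet coat protein of adipocytes, by 1.39. WAT4 was at 5.82 for Plin1 where the other WAT arrays lay between 7.57 and 8.27 and RG between 8.69 and 9.09.

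Genes that handle stored fat rose on both sides of the storage cycle, in part. In lipolysis 7 of 17 members were called higher and none lower by limma (11 and 1 at an unadjusted p under 0.05), with a median of 0.87, or -0.20 relative to the adipocyte markers, and the count was 1 without RG2 and 3 without RG4. They were Prkaca, the catalytic subunit of protein kinase A (1.18), Prkar2b, its main regulatory subunit in fat (1.47), Pde3b, the phosphodiesterase by which insulin holds lipolysis down (1.01), the receptors Ffar2 (1.10) and Hcar1 (1.38), which restrain lipolysis when bound by short-chain fatty acids or lactate, Abhd6, a monoacylglycerol lipase (1.13), and Pnpla2, the first triglyceride lipase (0.91). Triglyceride synthesis had 3 of 16 members higher and 1 lower, with a median of 0.80 (-0.28 relative to the adipocyte markers), and leaving out RG2 or RG4 took the higher count to 0, WAT2 or WAT4 to 1, WAT1 to 7 and WAT3 to 5, and leaving out RG2, RG3, RG4, WAT2 or WAT4 took the lower one to 0. Agpat2, the acyltransferase of adipocytes, rose by 1.20, Gpat4 by 0.80 and Agpat3 by 0.79, all enzymes of the glycerolipid pathway, and Agpat4, a relative of it, fell by 1.09. Dgat1 differed by 1.13 without being called.

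Of 22 genes of fatty acid uptake and binding, 3 were called higher and 3 lower by limma (9 and 4 at an unadjusted p under 0.05), with a median of 0.31 that became -0.76 relative to the adipocyte markers. The counts were 3 higher and 0 lower with quantile normalization, 6 and 3 without dim probe sets and 8 and 4 with array weights. With the replicate number as a block they were 0 and 0. Leaving out RG4 left 0 of either, and 1 was higher without WAT4, 5 without WAT1 and 6 without WAT3, while the lower one was 1 without RG2 or WAT4 and 0 without RG3. Fabp4, the fatty acid binding protein of adipocytes and a classical PPARG target, was at 11.69, 11.96 and 11.89 in RG and 11.26, 11.40, 11.28 and 10.78 in WAT (difference 0.67, adjusted p = 0.0178). Lpl, lipoprotein lipase, rose by 0.80, and the third was Slc27a2. Cd36, the fatty acid translocase and another classical target, differed by 0.57 and was not called (adjusted p = 0.0826), and Angptl4, an inhibitor of Lpl, differed by 0.65 (adjusted p = 0.136). Acsl4 fell by 0.61 and Acsl5 by 0.58, both acyl-CoA synthetases, and Olr1, a scavenger receptor, fell by 1.99, with WAT4 at 6.95 and the other WAT arrays at 4.37 to 4.98.

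Genes that make glycerol phosphate without glucose, a pathway known to respond to thiazolidinediones, were among those called. Of 17 members of the glycerol and glyceroneogenesis list, 4 were called higher and 1 lower (median 0.68, or -0.40 relative to the adipocyte markers), and 2 were higher without RG4. Pck1, cytosolic PEP carboxykinase, was at 10.15, 10.28 and 10.65 in RG and between 7.45 (WAT4) and 9.48 (WAT1) in WAT (difference 1.52, adjusted p = 0.0175). Gpd1, glycerol phosphate dehydrogenase, rose by 1.43 and was called in 2 of the 7 fits that left out an array. The pyruvate dehydrogenase kinases went in different directions. Pdk4 rose by 1.86 and Pdk2 by 1.34, while Pdk3 fell from 5.43, 5.07, 5.50 and 5.64 in WAT to 4.58, 4.00 and 4.34 in RG (difference -1.10, adjusted p = 0.0022). Aqp7, the glycerol channel, was at 9.05 to 9.94 in RG and 8.17 to 9.33 in WAT and was not called.

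De novo lipogenesis changed in few members, with 1 of 24 called higher, Elovl3, and 1 lower (median 0.59, or -0.48 relative to the adipocyte markers). That is 8.33% called in either direction, against 11.4% of all probe sets. Higher members numbered 2 without WAT1 or WAT3 and lower ones 0 without RG2. The lower one was Fads2, the delta-6 desaturase, which was at 4.71, 5.06 and 5.40 in RG and at 6.34, 6.67, 6.53 and 6.30 in WAT (difference -1.40, adjusted p = 0.0112). Scd1, the stearoyl-CoA desaturase, was at 10.55 to 10.82 in RG and 8.42 to 10.61 in WAT, so the groups overlapped.

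Mitochondrial beta-oxidation held the largest share of called members among the metabolic lists. Of 24 members, 17 were called higher and 2 lower, with a median of 1.05 that became -0.02 relative to the adipocyte markers. The higher count was 3 without RG4, 8 without RG2, 10 without WAT2 and 11 without WAT4, and the lower one was 1 without each of these 4 arrays. Slc25a20, the carrier that brings acylcarnitines into the matrix, was at 7.72, 7.49 and 8.03 in RG and at 6.76, 6.42, 6.59 and 5.97 in WAT (difference 1.31 ± 0.20, SE, n = 3 and 4, limma adjusted p = 0.00144). Acaa2, the thiolase, rose by 1.11, and Hadha, a subunit of the trifunctional protein, by 1.20. The chain-length-specific dehydrogenases Acadl (1.31), Acads (1.30), Acadvl (1.04) and Acadm (1.44) rose as well, as did Cpt2, the inner membrane transferase, by 1.31. Both measured forms of carnitine palmitoyltransferase 1 fell, while Cpt1b, the muscle and brown fat form, was not matched to a probe set and was not analysed here. Cpt1a, the form best known from liver, was at 5.81, 6.22 and 6.10 in RG and at 6.50, 7.26, 6.94 and 7.66 in WAT (difference -1.05, adjusted p = 0.0222), and Cpt1c, a form known from brain, was at 3.23, 3.65 and 3.04 against 4.26, 4.61, 4.43 and 4.72 (difference -1.20, adjusted p = 0.00199). In both, all RG arrays lay below all WAT arrays, as for 11.6% of all probe sets. Peroxisomal oxidation had 12 of 24 members higher and none lower by limma (17 and 0 at an unadjusted p under 0.05), with a median of 0.71 (-0.36 relative to the adipocyte markers), among them Hsd17b4, the multifunctional enzyme (1.15), Abcd3, a peroxisomal transporter (0.99), and Ehhadh, the bifunctional enzyme (1.33). That count was 2 without RG4, 3 without RG2, 4 without WAT2 or WAT4 and 7 without RG3.

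The citric acid cycle and the respiratory chain rose by smaller steps over many genes. In the citric acid cycle 14 of 21 members were called higher and none lower by limma (20 and 0 at an unadjusted p under 0.05), with a median of 0.85, or -0.22 relative to the adipocyte markers, and the count was 4 without RG4, 7 without RG2 or WAT4 and 8 without WAT2. Idh3a was at 8.43, 8.26 and 8.91 in RG and 7.33, 6.99, 7.32 and 5.85 in WAT (difference 1.66, adjusted p = 0.00286). Mdh2, malate dehydrogenase, rose by 1.02, Idh3b by 1.01 and Cs, citrate synthase, by 1.07. In complex I, 15 of 34 members were called higher and none lower by limma (30 and 0 at an unadjusted p under 0.05; median 0.67, or -0.41 relative to the adipocyte markers), including Ndufs3 (1.09), Ndufab1 (1.01), Ndufa10 (0.97) and Ndufv1 (0.94). The complex I count was 1 without RG4, 4 without RG2, 6 without WAT4 and 8 without WAT2. In complexes III to V, 16 of 32 were called higher and none lower (24 and 0 at an unadjusted p under 0.05; median 0.63, or -0.44 relative to the adipocyte markers), and Cox7a1 and Cox8b exceeded all others there, followed by Atp5k of ATP synthase and Cyc1 of complex III (1.14). Here the count was 3 without RG2 or RG4, 6 without WAT2 and 7 without WAT4. Branched-chain amino acid catabolism, which feeds carbon into this cycle in adipocytes, rose in 14 of 24 members and fell in none by limma (20 and 0 at an unadjusted p under 0.05; median 0.84, or -0.24 relative to the adipocyte markers), including Mccc2 (1.43) and Pccb (1.08), with 1 called without RG4, 2 without RG2, 3 without WAT2 and 4 without WAT4.

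Mature adipocyte genes moved with these pathways. Mature adipocyte genes were called higher in 14 of 26 members and lower in none by limma (24 and 0 at an unadjusted p under 0.05), with a median of 1.08, and the count was 2 without RG4, 6 without RG2, 7 without RG3 or WAT2 and 9 without WAT4. Adipoq, which encodes adiponectin, was at 10.54, 10.57 and 11.04 in RG and at 10.47, 9.84, 10.39 and 7.85 in WAT (difference 1.08, adjusted p = 0.131), so WAT1 and WAT3 lay close to RG and WAT4 far below. Set against the 8 adipocyte markers of the same array, the mean of the beta-oxidation list was -1.77, -1.90 and -1.85 in RG2, RG3 and RG4 and -1.86, -1.69, -1.71 and -1.17 in WAT1 to WAT4, and the groups overlapped. The citric acid cycle list stood at -1.03, -1.27 and -1.13 in RG and -1.13, -1.08, -1.07 and -0.49 in WAT, again overlapping. The part of this marker difference in the metabolic differences was not tested, and the markers include Pparg and its target Fabp4.

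**Figure D2:**
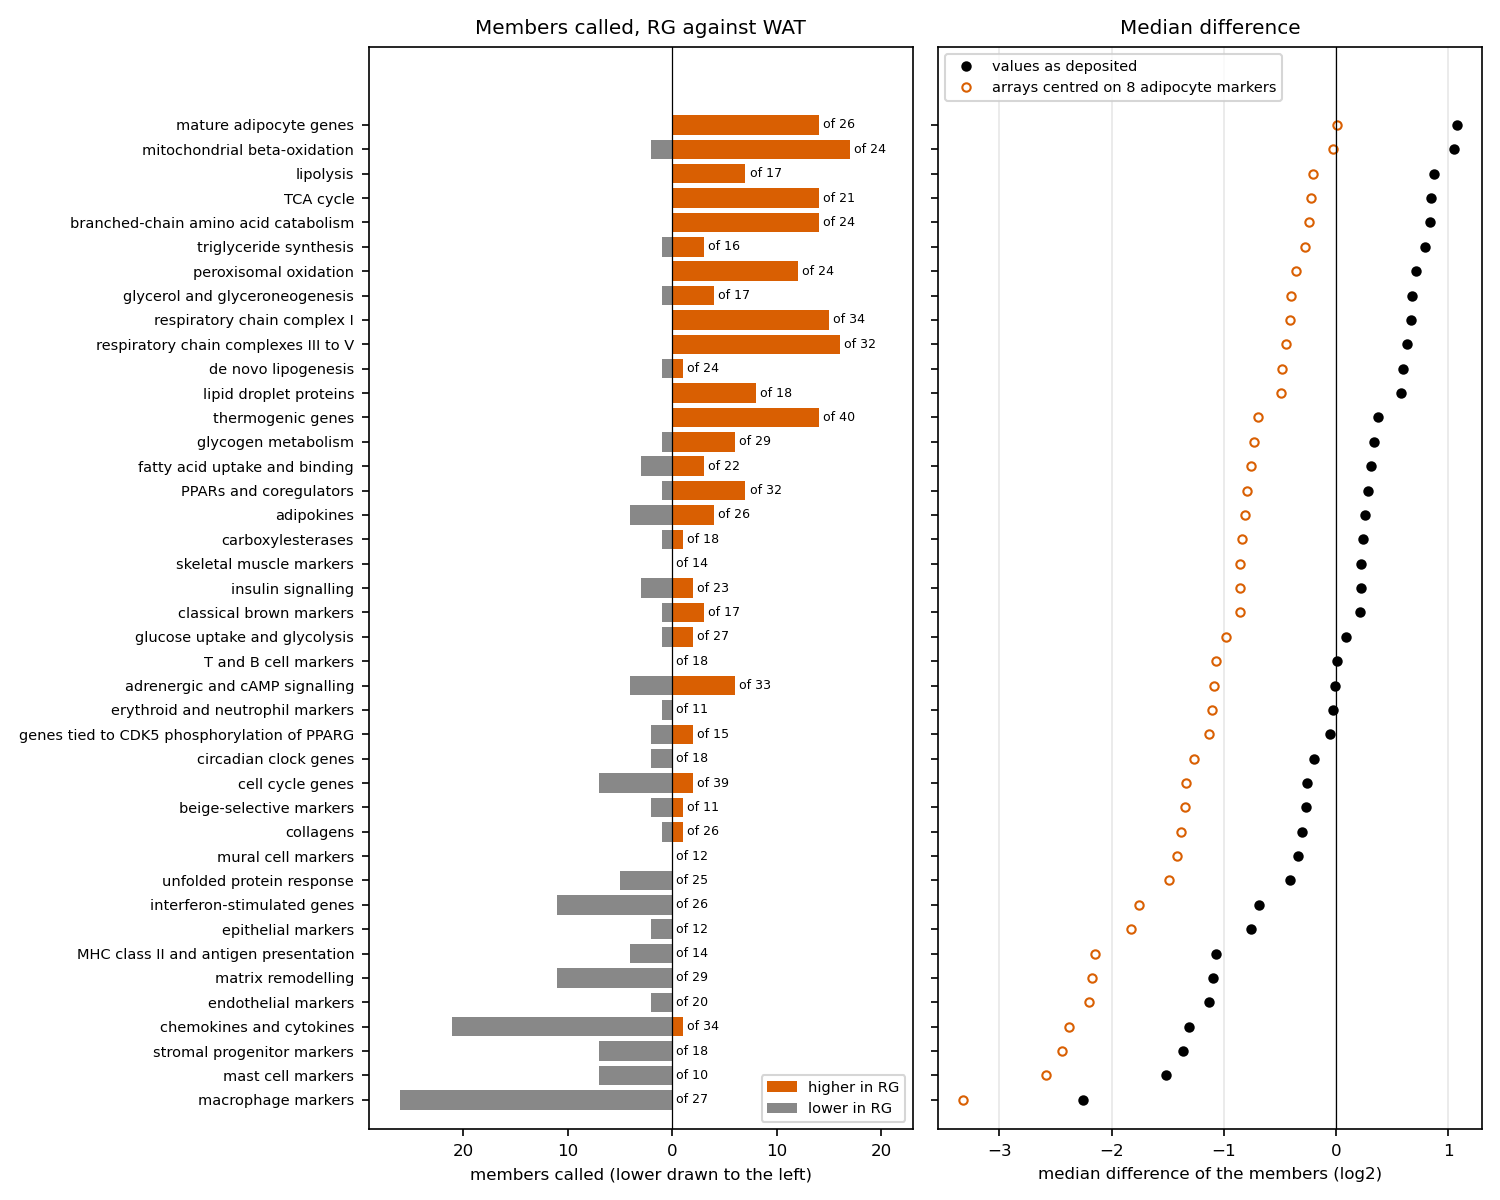
Left, members of each of 41 gene lists called higher (drawn to the right) or lower (drawn to the left) in RG against WAT, with the number measured. Right, median log2 difference of the members, with filled points for the values as deposited and open points after centring every array on 8 adipocyte markers. Filled medians ran from 1.08 for mature adipocyte genes to -2.25 for macrophage markers, and after centring the medians of all lists but the mature adipocyte one were below 0.

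Glycogen genes were called higher in 6 of 29 members and lower in 1 (median 0.34, or -0.73 relative to the adipocyte markers). Higher members numbered 0 without RG4, 1 without RG2 and 3 without WAT2 or WAT4, and lower ones 2 without WAT1. Gys2, the form of glycogen synthase best known from liver, was at 7.71, 7.58 and 8.45 in RG and at 6.55, 5.91, 6.60 and 4.13 in WAT (difference 2.12 ± 0.44, SE, n = 3 and 4, limma adjusted p = 0.00843). Gyg, the primer of glycogen, rose by 0.79, Gys1, the widespread synthase, by 1.11 and the phosphatase targeting subunits Ppp1r3c and Ppp1r3d by 1.32 and 0.53. The phosphoglucomutases parted, Pgm1 rising by 1.09 and Pgm2 falling by 1.26. Glucose uptake and glycolysis had 2 of 27 members higher and 1 lower (median 0.09, or -0.98 relative to the adipocyte markers). That is 11.11% called in either direction, near the 11.4% of all probe sets. Ldhb rose by 0.72 and Pfkfb3, which makes an activator of glycolysis, by 0.86, the higher count being 0 without RG4 and 1 without RG2, RG3, WAT2 or WAT4. Slc2a3, a glucose transporter of neurons and leukocytes, fell by 1.33 and was not called without RG3. Slc2a4, the insulin-responsive transporter, was at 7.14, 6.74 and 7.73 in RG and 7.03, 6.09, 6.75 and 4.55 in WAT and was not called (adjusted p = 0.229).

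Of 23 members of insulin signalling 2 were called higher and 3 lower (median 0.22, or -0.85 relative to the adipocyte markers), with 1 higher without RG2 or RG4 and 4 without WAT1 or WAT3. That is 21.74% called in either direction, against 11.4% of all probe sets. Grb10, an adaptor that damps the insulin receptor, was at 5.30, 5.53 and 5.73 in RG and at 6.51, 6.72, 6.77 and 6.71 in WAT (difference -1.16, adjusted p = 0.00186). Ptpn1, the phosphatase that removes phosphate from the receptor, was at 5.85, 5.92 and 5.49 against 6.52, 6.42, 6.71 and 7.09 (difference -0.93, adjusted p = 0.00571). Grb14, a relative of Grb10 that also inhibits the receptor, went the other way, from 4.13, 4.17, 4.27 and 4.17 to 5.25, 5.18 and 5.57 (difference 1.15, adjusted p = 0.00818). None of these 3 genes, picked by their p, overlapped between the groups. That was also so for 19.1% of all probe sets with RG higher and 11.6% with RG lower. WAT4 lay within or next to the other WAT arrays for Grb10 and Grb14. The other member that rose was Pde3b. Tbc1d1, a regulator of glucose transporter traffic, fell by 0.84. Insr, the receptor, differed by 0.61 and was not called (adjusted p = 0.137).

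Secreted factors of fat went both ways, with 4 of 26 adipokines higher and 4 lower (median 0.26, or -0.81 relative to the adipocyte markers). The higher count was 0 without RG4, 1 without RG2 or WAT4 and 2 without WAT2, and the lower one was 1 without RG4 or WAT4 and 2 without RG2, RG3 or WAT2. Lep was at 8.05, 7.72 and 8.86 in RG and at 7.29, 6.62, 7.17 and 4.84 in WAT (difference 1.73, adjusted p = 0.0243). Metrnl, a secreted protein linked to browning and also made by macrophages, was at 3.76, 4.16 and 3.25 in RG and at 5.49, 6.19, 5.52 and 7.12 in WAT (difference -2.36 ± 0.36, SE, n = 3 and 4, limma adjusted p = 0.0014), the largest decrease of the list. Agt, angiotensinogen, fell by 0.88, and the C1q family members C1qtnf1 and C1qtnf2 by 1.23 and 0.81. Besides Lep and Nrg4, C1qtnf3 rose by 0.70 and Ccdc3 by 0.87. Retn, resistin, was at 10.66 to 11.28 in RG and 8.25 to 10.68 in WAT and was not called.

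Markers proposed for beige or brown identity were mostly not called, and no set test was run. Many of them were dim, with 8 of 11 beige-selective and 10 of 17 classical brown markers at a mean under 5 over the 15 arrays. The mean of the beige-selective markers was 4.50 to 4.63 in RG and 4.71 to 4.99 in WAT. Of 11 beige-selective markers 1 was called higher and 2 lower (median -0.27), the higher count being 0 without RG2, RG3, RG4, WAT2 or WAT4 and the lower one 1 without RG4 or WAT4. Hoxc8, a homeobox gene of posterior depots, rose from 6.10, 5.98, 6.27 and 5.38 to 7.03, 7.02 and 7.34 (difference 1.20, adjusted p = 0.0255). Tmem26 was at 4.40, 3.64 and 3.54 in RG and 4.11, 4.27, 4.11 and 6.14 in WAT, overlapping, and Tbx1 differed by 0.09. The 2 that fell were Sp100, a nuclear body protein also induced by interferon (-1.58), and Cd40, a receptor of antigen-presenting cells (-1.02). Of 17 classical brown markers 3 were called higher, Pdk4, Oplah (1.06) and the amino acid transporter Slc36a2 (1.47), and 1 lower, Epsti1, an interferon-responsive gene that fell from 5.20, 5.74, 5.31 and 5.71 to 3.10, 3.15 and 3.53 (median 0.22, or -0.86 relative to the adipocyte markers, and 1 higher without RG2 or RG4). Among 15 genes tied to phosphorylation of PPARG by CDK5, 2 were called higher, Txnip (0.56) and Cidec, and 2 lower, Rybp (-1.66) and Cd24a (-1.41), with a median of -0.05. Higher members numbered 0 without RG2, RG3, RG4 or WAT4 and 1 without WAT2, and lower ones 1 without RG4.

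Adrenergic and cAMP signalling had 6 of 33 members higher and 4 lower, with a median of -0.01. Besides Prkaca, Prkar2b and Pde3b, the higher ones were Pde4d (0.79), Pde4a (0.69) and Adcy5, an adenylyl cyclase of adipocytes (1.13). The lower ones were Creb1, the cAMP-responsive transcription factor, at 6.02 to 6.30 in RG and 6.74 to 7.36 in WAT (difference -0.95, adjusted p = 0.00782), its early response targets Nr4a2 (-1.21) and Nr4a3 (-1.58), and Adcy7 (-0.83). The higher count was 1 without RG4 and 3 without RG2, and the lower one was 2 without RG2, RG3, RG4, WAT2 or WAT4. Of 18 carboxylesterases, Ces1f rose and Ces2g fell by 1.99 (median 0.24, or -0.84 relative to the adipocyte markers). That is 11.11% called in either direction, near the 11.4% of all probe sets. Ces1f was not called without RG2, RG3, RG4 or WAT2, Ces2g was not called without RG2, RG3, RG4, WAT2 or WAT4, and 2 members were called higher without WAT1 or WAT3.

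Macrophage markers were lower in RG. Of 27 macrophage markers 26 were called lower and none higher by limma (27 and 0 at an unadjusted p under 0.05), against 6.24% of all probe sets lower, with a median of -2.25. The count was 22 to 26 over the 7 fits that each left out 1 array. Folr2, a folate receptor of resident macrophages, was at 6.47, 6.67 and 5.63 in RG and at 9.04, 9.19, 9.32 and 9.62 in WAT, an 8.20-fold decrease (difference -3.04 ± 0.24, SE, n = 3 and 4, limma adjusted p = 3.01e-05). Cd209f, a lectin of the same cells, was at 5.34, 5.88 and 4.39 against 8.90, 8.87, 9.07 and 8.68 (difference -3.68, adjusted p = 3.19e-05). Cd163, a scavenger receptor, was at 4.50, 4.59 and 4.67 against 6.30, 6.47, 6.51 and 5.87. Cd68 fell by 2.83, Adgre1, the F4/80 antigen, by 2.37 and Mrc1, the mannose receptor, by 2.35. In each of these genes all 4 WAT arrays were above all RG arrays, as for 11.6% of all probe sets in this direction. Mertk, a receptor for dying cells, was the member not called, at 6.59, 7.28 and 7.39 in RG and 7.62, 8.03, 7.42 and 7.45 in WAT.

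Mast cell markers were called lower in 7 of 10 members, with a median of -1.51. Cpa3, carboxypeptidase A of mast cells, was at 2.36, 3.03 and 3.31 in RG and at 6.20, 8.25, 6.96 and 8.47 in WAT (limma adjusted p = 0.000131). The protease Mcpt4 was at 0.97, 2.21 and 1.68 in RG and at 4.04, 5.83, 4.51 and 5.64 in WAT. Signal over background was not analysed here, so RG values this low are not shown to be above it, and no fold is given for these genes. The protease Tpsb2, Hdc, which makes histamine, and Kit, the receptor for stem cell factor, were called lower too. Stromal progenitor markers were called lower in 7 of 18 members (median -1.37), and in 4 without RG4. Sfrp4, a Wnt modulator, was at 3.41, 4.84 and 3.92 in RG and 6.03, 7.77, 6.37 and 7.47 in WAT (difference -2.85, adjusted p = 0.000987), Pi16 fell by 2.61 and Dpp4, both markers of early progenitors, by 2.22. Pdgfra, the receptor that defines these cells, was at 5.04, 6.14 and 5.42 in RG and 5.37, 6.95, 5.53 and 7.55 in WAT, overlapping and not called (adjusted p = 0.321).

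Endothelial markers depended on single arrays. Their mean was 4.92, 5.12 and 6.18 in RG2, RG3 and RG4 and 6.52, 6.90, 6.96 and 5.66 in WAT1 to WAT4, so RG4 and WAT4 lay on the other group's side. Of 20 members 2 were called lower, Cldn5, a tight junction protein (-2.19), and Esam (-1.64), with 6 without WAT4, 3 without RG4, 1 without WAT1 and 0 without RG2, RG3, WAT2 or WAT3. Krt19, an epithelial keratin, was at 6.75 and 7.02 in WAT1 and WAT3, at 4.65 and 4.02 in WAT2 and WAT4 and at 2.55 to 3.85 in RG (difference -2.40, adjusted p = 0.017). With Krt14 it made 2 of 12 epithelial members lower, 5 without WAT4, 1 without RG2, WAT1 or WAT3 and 0 without RG3 or RG4. T and B cell markers were called in 0 of 18 members by limma (2 higher and 1 lower at an unadjusted p under 0.05), mural markers in 0 of 12 (3 and 2) and skeletal muscle markers in 0 of 14 (5 and 0). Erythroid and neutrophil markers had 1 of 11 lower, Csf3r (-1.19), and 0 without RG2, RG3 or RG4. The called share was 10.0% for endothelial and 9.09% for erythroid and neutrophil markers. Over all probe sets it was 11.4% in either direction and 6.24% lower.

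**Figure D3:**
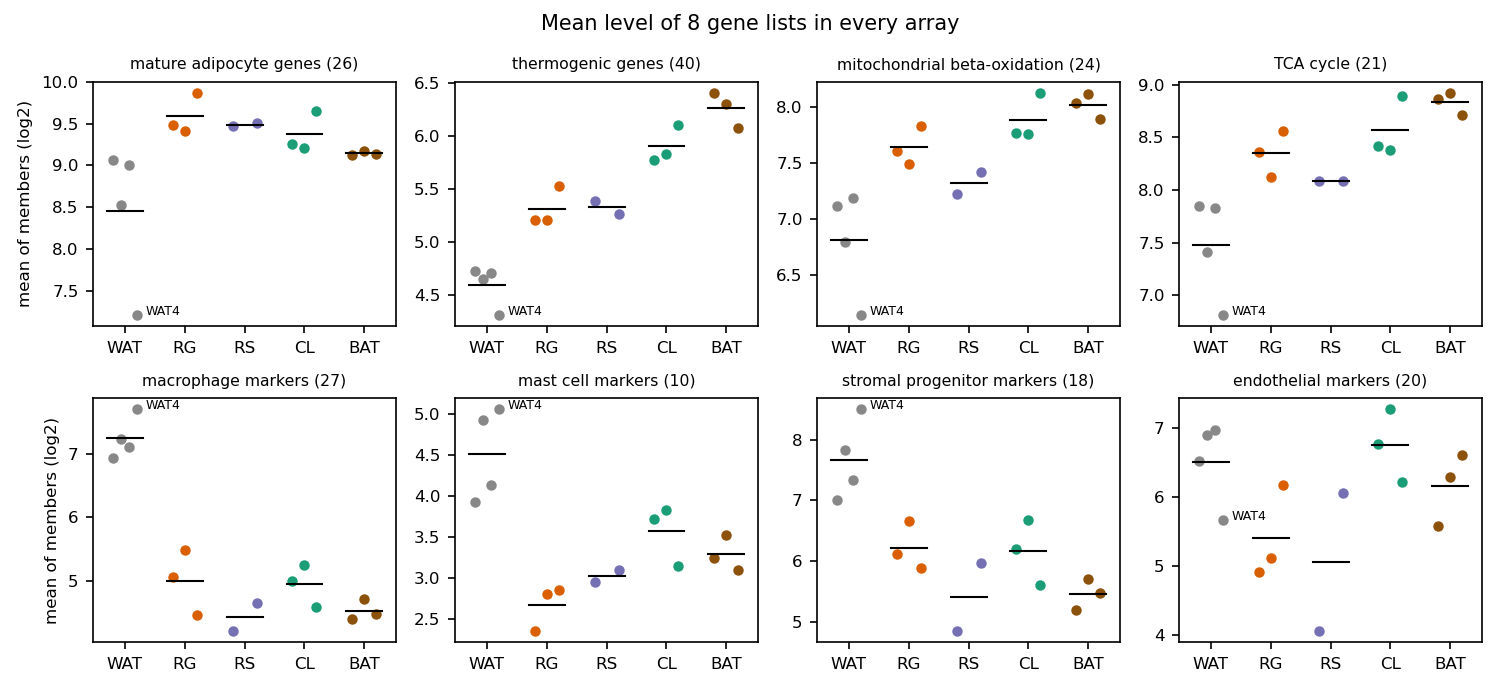
Mean log2 value of the measured members of 8 gene lists (number of members in brackets) in each of the 15 arrays, by group. Points are arrays and horizontal lines are group means. WAT4 is labelled and lies lowest for mature adipocyte genes, at 7.22, and highest for macrophage markers, at 7.70, where the RG arrays lie between 4.48 and 5.49.

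Inflammatory genes fell together with the macrophage markers. Of 34 chemokines and cytokines 21 were called lower and 1 higher, with a median of -1.31, and the lower count was 12 without RG4. Il6 was at 5.36, 5.38 and 5.41 in RG and at 6.62, 6.59, 6.73 and 6.67 in WAT (difference -1.27 ± 0.14, SE, n = 3 and 4, limma adjusted p = 0.000183). WAT4, which stood apart in macrophage markers, was within the other WAT arrays for this gene. The chemokine Ccl3 was at 4.41, 3.85 and 3.33 against 7.24, 7.04, 7.27 and 8.81 (difference -3.73), and Ccl8 fell by 3.15, Ccl6 by 2.93 and Tnf by 2.58. Cxcl9, a chemokine induced by interferon gamma, was the exception, at 9.57, 9.56 and 9.56 in RG and 8.96, 8.72, 9.23 and 8.16 in WAT (difference 0.80, adjusted p = 0.0402), and it was not called without RG2, RG3, RG4, WAT2 or WAT4. Genes of MHC class II presentation fell in 4 of 14 members (median -1.07), the costimulator Cd86 by 2.90, Cd80 by 1.92, H2-DMa by 1.85 and Ctss by 2.00, with 2 called without RG4. The class II invariant chain Cd74 was at 8.08, 9.34 and 8.02 in RG and 8.59, 10.33, 8.95 and 10.97 in WAT, overlapping.

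Interferon-stimulated genes fell in 11 of 26 members and rose in none by limma (16 lower and 1 higher at an unadjusted p under 0.05; median -0.68), and in 5 without RG4. Bst2, tetherin, was at 7.78, 7.63 and 8.14 in RG and at 9.33, 9.34, 9.56 and 9.31 in WAT (difference -1.53, adjusted p = 0.000447). Oasl2 fell by 1.96 and Oas2 by 2.13, both of the oligoadenylate synthetase family, and Ifit2 by 1.22. Macrophage markers moved with the immune lists in these arrays, and their part in those results was not tested.

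Matrix genes split by kind. Remodelling genes were called lower in 11 of 29 members (median -1.10), including Timp3, an inhibitor of matrix proteases (-1.89), Loxl2, which crosslinks collagen (-1.43), and Postn, periostin (-1.95), with 3 called without RG2 or RG4, 4 without WAT4 and 7 without RG3 or WAT2. Of 26 collagens only Col14a1 was called lower, from 5.30, 6.53, 5.73 and 7.11 to 3.61, 4.43 and 3.26 (difference -2.40, adjusted p = 0.00104), and Col8a2 higher (0.69), with a median of -0.30. The called share of collagens was 7.69%, against 11.4% of all probe sets. The lower count was 4 without WAT1 and 2 without RG4 or WAT3, and Col8a2 was not called without RG3, RG4, WAT1, WAT3 or WAT4. Stromal markers moved with these lists too, and their part was not tested.

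Cell cycle genes were mostly dim, with 33 of 39 at a mean under 5, and 7 were called lower and 2 higher (median -0.26). Kif23, a kinesin of cytokinesis, was at 2.54, 2.13 and 2.76 in RG and 3.66, 4.06, 4.21 and 3.96 in WAT (difference -1.50, adjusted p = 0.000636), and Mcm6, a replication helicase subunit, fell by 1.24. Prc1 of the spindle midzone rose by 0.50 and Cdkn2c, a kinase inhibitor, by 1.04. The lower count was 2 without RG2 and 4 without RG3, RG4 or WAT2, and the higher one was 0 without RG2, RG4 or WAT2 and 1 without RG3 or WAT4. Of 25 genes of the unfolded protein response 5 were called lower and none higher by limma (11 and 0 at an unadjusted p under 0.05; median -0.41), led by Sdf2l1, an endoplasmic reticulum chaperone cofactor (-1.86), with Manf (-0.85), Herpud1 (-0.83), Ern1 (-0.72) and Atf3 (-0.70), and the count was 1 without RG2, RG4 or WAT2 and 2 without RG3 or WAT4. Of 18 clock genes Per1 (-0.93) and Bhlhe40 (-0.56) were lower, with 1 called without RG2 or RG4 and 3 without WAT1. The called share of clock genes was 11.11%, against 11.4% of all probe sets in either direction and 6.24% lower.

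Set directly against CL, the cells of mice given the beta3-adrenergic agonist, RG cells were lower in most thermogenic genes that distinguished them. In RG against CL 724 probe sets were called (2.87%), 308 higher and 416 lower in RG (385 and 301 with every array centred on its median, 293 and 204 without dim probe sets), and the count fell to 28 without RG3, 32 without RG2, 199 without CL1, 229 without CL4, 295 without RG4 and 347 without CL3. Elovl3 was at 9.05, 8.98 and 8.70 in CL against 5.06, 5.02 and 6.17 in RG, a difference of -3.49 ± 0.38 (SE, n = 3 and 3, limma adjusted p = 0.00145). Phospho1, a phosphatase of brown fat, had a mean of 7.42 in CL and 5.25 in RG (RG minus CL -2.17, adjusted p = 0.00155), and Slc27a2 one of 5.72 and 3.53 (-2.19, adjusted p = 0.0124). Cox7a1 was at 9.20, 9.22 and 9.87 in CL (-1.78, adjusted p = 0.0161) and Ucp1 at 10.53, 10.52 and 10.19 (-2.24, adjusted p = 0.0307). Of the 40 thermogenic genes 8 were lower and 1, Irf4, higher in RG than in CL. In both Elovl3 and Cox7a1 the RG arrays lay between WAT and CL without touching either.

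Some other genes of heat production and oxidation were not called between RG and CL, which does not show that their levels were equal. The means of Ppargc1a were 5.73 in RG and 5.69 in CL (limma adjusted p = 0.959) and those of Pdk4 8.86 and 9.14 (adjusted p = 0.749). In both of these the groups overlapped. The means of Cidea were 8.71 and 9.91 (RG minus CL -1.20 ± 0.44, SE, limma adjusted p = 0.145). Its RG arrays, at 8.38, 8.37 and 9.38, all lay below its CL arrays, at 9.77, 9.53 and 10.43. Pparg was at 8.17 in RG and 7.68 in CL (adjusted p = 0.153). The citric acid cycle, both respiratory lists apart from Cox7a1, and peroxisomal oxidation had 0 members called by limma in RG against CL, with list medians of -0.10 to -0.25. At an unadjusted p under 0.05, 0 members of the citric acid cycle, 1 higher and 4 lower of complex I, 5 lower of complexes III to V and 3 lower of peroxisomal oxidation passed. In mitochondrial beta-oxidation 2 of 24 members were called lower in RG than in CL and 0 higher, with a list median of -0.215. They were Slc25a20 (-0.99, limma adjusted p = 0.0298) and Acaa2 (-0.97, limma adjusted p = 0.0203). At an unadjusted p under 0.05, 5 members of that list were lower and 0 higher. Relative to the 8 adipocyte markers of each array, the citric acid cycle list stood at -1.03, -1.27 and -1.13 in RG. In CL it stood at -0.69, -0.62 and -0.64. Beta-oxidation stood at -1.77, -1.90 and -1.85 in RG and -1.34, -1.24 and -1.40 in CL. For both respiratory lists and peroxisomal oxidation, too, every RG array lay below every CL array on this scale. These relative levels were not tested. In fatty acid uptake Slc27a2 and Acsl5 were called, and Acsl5 was at 7.06, 7.01 and 7.05 in CL and 5.01, 4.95 and 5.21 in RG (-1.98, adjusted p = 0.000371).

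**Figure D4:**
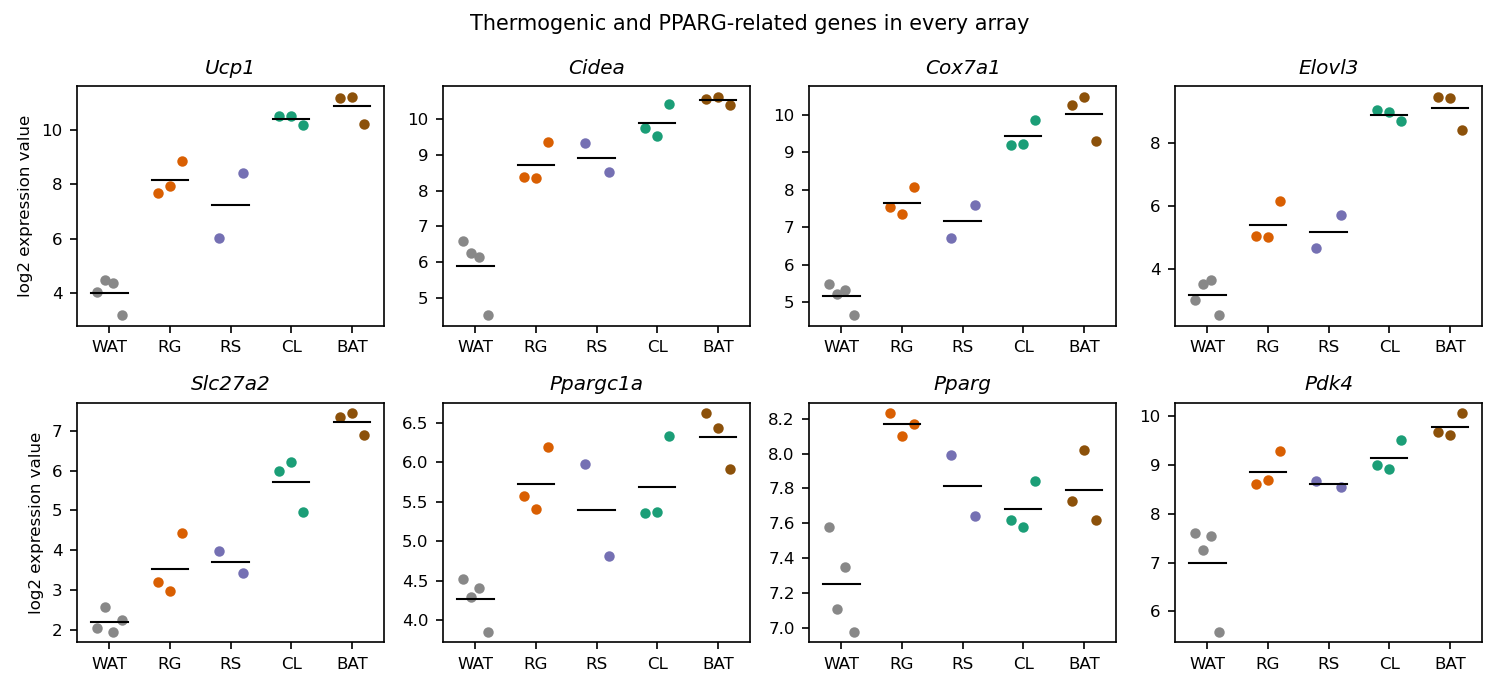
Log2 expression values of 8 genes in every array of the 5 groups. Points are arrays and horizontal lines are group means. For Ucp1, Cox7a1 and Elovl3 the RG arrays lie between WAT and CL, while for Pparg the RG arrays, at 8.10 to 8.23, lie above all other arrays.

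Genes higher in RG than in CL were led by Celsr2, an adhesion receptor (2.20), Nnat and Peg3, both imprinted genes (2.07 and 1.80), Cers6, a ceramide synthase (1.96), Alkal2, a ligand of the kinase ALK (1.86), Ifit1, an interferon-stimulated gene (1.83), Rnd3, a small GTPase (1.65), and Vnn1, a pantetheinase (1.64). Alkal2 was at 6.06, 6.30 and 5.24 in RG and 6.30, 5.71, 6.31 and 5.30 in WAT, and its CL mean was 4.00. Nnat is the one of these 8 that also passed against WAT (adjusted p = 0.0431), at 7.46, 7.48 and 7.40 in RG, 5.40 to 6.97 in WAT and 5.37 on average in CL. Inflammatory genes were partly higher in RG than in CL, with 4 of 34 chemokines and cytokines called (Ccl2, Ccl7, Cxcl10 and Il6, by 1.35, 1.43, 1.29 and 0.89) and 1 lower, Ccl12. Genes lower in RG also included Cpa3 (-2.79), the endothelial receptor Kdr (-2.12), the mural channel gene Kcnj8 (-2.12) and Rasgrp3 (-2.08). Kdr was at 5.87, 6.03 and 7.31 in RG and had a mean of 8.53 in CL, and the endothelial list as a whole was lower in RG than in CL by a median of 1.40 with 1 of 20 members called.

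Fewer probe sets passed between RG and RS, where RS had 2 arrays. In RG against RS 172 probe sets were called (0.682%), 85 higher and 87 lower in RG (139 and 67 with median centring, 92 and 43 without dim probe sets), and leaving out an array gave 8 (RG3), 13 (RG4), 17 (RG2), 35 (RS4) or 308 (RS3). No thermogenic gene was called by limma (3 higher and 2 lower at an unadjusted p under 0.05), but the RS arrays were far apart in several, with Ucp1 at 6.05 and 8.43. The difference in Ucp1 was 0.94 ± 0.56 (SE, n = 3 and 2, limma adjusted p = 0.39). Under the naming rule the higher genes were Eif2s3y, a Y-linked translation factor gene (2.20), Grb14 (1.60), Rabif (1.52), Mzt1 (1.34), Chtop (1.25), Zbtb8os (1.23), Fabp9 (1.21) and Ap4b1 (1.18), and the lower ones were Lipo4 (-1.22) and Gpr155 (-1.15). Since Eif2s3y is Y-linked and the labels give no sex, its difference is given as a value only. Grb14 was at 5.25, 5.18 and 5.57 in RG, 3.73 on average in RS and 4.45 in CL, where the difference from RG did not pass (adjusted p = 0.0715).

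A few genes differed in RG from WAT, CL and RS alike in the main fit, and they were picked out after their values were seen. The fit of RG and RS alone called 0 probe sets, as did the replicate block against RS. With that block the limma adjusted p against CL was 0.129 for Fabp9 and 0.215 for Gpr155. Fabp9, a member of the fatty acid binding protein family known from testis, was at 5.17, 5.49 and 4.91 in RG, at 3.85, 3.73, 3.85 and 3.54 in WAT, at 4.03, 4.37 and 3.87 in CL and at 4.19 and 3.78 in RS, with no overlap (adjusted p = 0.000631, 0.0169 and 0.0353 by limma). Brown adipocytes reached 4.94 to 5.55. Sharing of signal between probes of this gene family was not tested. Cd274, the immune checkpoint ligand PD-L1, was at 6.24, 6.57 and 5.83 in RG and 5.24 to 5.37 in WAT, with means of 5.51 in CL and 5.14 in RS (adjusted p = 0.00416, 0.0446 and 0.0304). Accs, an aminotransferase family member, was higher by 1.23, 0.70 and 0.92 against WAT, CL and RS. Gpr155, an orphan receptor-like protein, was lower, at 3.91, 3.97 and 3.92 in RG and 4.57 to 4.88 in WAT (adjusted p = 0.0137), with means of 4.85 in CL and 5.08 in RS.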

How the data were processed

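Single-colour Affymetrix arrays were hybridised from 2 ng of total RNA of sorted adipocytes, per the labels' protocols, after amplification by a WT Pico kit. The table the authors deposited holds log2 expression, 1 row per Entrez gene. Affymetrix Expression Console, affy 1.36.1 and RMA appear, without order or settings, in the submitters' processing notes. RMA is meant to pull arrays to a common distribution, so differences are relative within an array, but the deposited arrays did not fully share one. The SD over probe sets was 1.83 to 1.85 in RG and 1.91 to 2.00 in WAT. The 10th percentile was 1.81 to 1.87 in RG and 1.51 to 1.68 in WAT. Of 25206 probe sets, 23185 had 1 gene symbol and 2021 had none in the platform table. All 15 arrays were fitted by group in limma 3.58.1 (R 4.3.3, 10 residual degrees of freedom), with contrasts of RG against WAT, CL and RS, a two-sided adjusted p (Benjamini-Hochberg over all probe sets) under 0.05 and no filter. The fit was tested on simulated data. The number of arrays limits the precision. Named genes were the 15 largest changes per direction against WAT and the 8 per direction against CL and RS among genes called, not overlapping and at a mean of at least 5 in the higher group, plus up to 4 members per list by p and members a sentence needed. Predicted genes, sensory receptors and small RNAs were left out of the first set. The members and the 41 gene lists were chosen with earlier results of these data known. Alternatives were the fit of only the groups compared, the replicate number as a block, median centring, quantile normalization, a filter on dim probe sets, a trended robust prior, array weights and leaving out arrays.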

Additional observations from a re-analysis of the deposited data

Results flagged for a closer look

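Among 71 named levels in the 4 WAT arrays, 2 had a single array far from the other arrays of the group, past the limit of Dixon's gap test, where chance gives about 1 in 20. The 2 of 71 do not exceed that share. Ccl3, a macrophage chemokine, was at 8.81 in WAT4 and at 7.24, 7.04 and 7.27 in WAT1, WAT2 and WAT3, a gap of 0.870 of the range. Cd209g, a lectin, was at 7.02 in WAT4 and at 7.70, 7.63 and 7.71 in the same 3 arrays, a gap of 0.884 of the range.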

How the results depend on the processing

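The count for RG against WAT was 6509 with array weights, 15039 with every array centred on the adipocyte markers and 1044 to 2783 when 1 array was left out; the other settings without the block gave 1991 to 3159. RG against CL gave 442 with quantile normalization and 28 to 347 with 1 array left out. RG against RS gave 44 with quantile normalization, 0 with only those groups fitted (1922 higher and 2123 lower at an unadjusted p under 0.05 in limma) and 8 to 308 with 1 array left out. The cause of these moves was not tested. Same-numbered RG and WAT arrays deviated from their group means in opposite directions (correlations -0.88, -0.38 and -0.37). Deviations within a small group sum to 0, so these values cannot show whether same-numbered arrays shared a batch. With the replicate block limma called 1071 probe sets against WAT, 1 against CL and 0 against RS (1296 higher and 1465 lower at an unadjusted p under 0.05). Members called higher against WAT with the block numbered 8 for beta-oxidation, 4 for complexes III to V, 2 for branched-chain catabolism and 0 for triglyceride synthesis. Macrophage markers called lower numbered 24. Of 134 named genes called against WAT, 72 were called under every setting but the adipocyte centring. Centring on the adipocyte markers, chosen after seeing the data, turned the sign of 27 of them, by its own construction a constant shift between the groups: Pparg -0.16, Cebpa -0.0728, Fabp4 -0.41, Lpl -0.28, Gpat4 -0.27, Agpat3 -0.29, Plin5 -0.0495, Pde3b -0.0645, Acot6 -0.30, Abcd3 -0.082, Ech1 -0.15, Mdh2 -0.0503, Idh3b -0.062, Cs -0.0078, Ndufab1 -0.0611, Ndufa10 -0.10, Ndufv1 -0.14, Uqcrfs1 -0.18, Gyg -0.29, Ldhb -0.35, Pfkfb3 -0.21, Txnip -0.52, Oplah -0.014, Pde4d -0.28, Mcee -0.34, Slc25a44 -0.27 and Col8a2 -0.39. No other setting reversed a named gene. Signal over background was not analysed here.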

Other observations

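Olfactory and vomeronasal receptor genes, which adipocytes are not known to use widely, had 1354 probe sets on the array. Of these 111 of 1354 were called higher in RG than in WAT and 0 lower by limma, with a median difference of 0.27. Over all 25206 probe sets 1308 were called higher (5.19%), with a median of 0.10. With quantile normalization 22 of the 1354 were called higher, against 969 of all 25206 probe sets, and the receptor median was 0.07.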
